A study of Mus musculus with 8 samples.

Results

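A set of 10 genes of the NRF2 oxidative stress response was followed in cultured mouse lung group 2 innate lymphoid cells (ILC2s) that had been exposed to Yoda1, a chemical agonist of the mechanosensitive ion channel Piezo1, or to its vehicle DMSO. They were selected by symbol, 10 of the 23183 genes listed in each count table, and all 10 had enough counts to be tested. NRF2, encoded by Nfe2l2, is a transcription factor that KEAP1 keeps scarce by binding it and presenting it to the CUL3 ubiquitin ligase. When electrophiles or oxidants modify KEAP1, or when the autophagy receptor p62 (Sqstm1) occupies it, NRF2 accumulates, pairs with a small MAF protein and raises transcription of antioxidant genes, while BACH1 competes for the same sites. The targets followed here make glutathione (Gclc, Gclm), run the thioredoxin cycle (Txnrd1, Srxn1, Prdx1), degrade heme (Hmox1) or reduce quinones (Nqo1), and in lymphocytes this system is known to limit damage from the oxidants made during activation.

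The libraries were 4 labelled DMSO (0.1%) and 4 labelled Yoda1 (5 µM), all from lung ILC2s of wild-type mice (C57BL/6 in the labels, C57BL/6 J in the study's methods) and treated for 3 h. Per the study's methods, the mice were of both sexes, were 6 to 10 weeks old and had received IL-33, and the cells were enriched with a Pan-ILC kit and CD45 beads and grown with IL-2, IL-7 and IL-33 at 10 ng/mL each, so both groups were already stimulated cells. Poly(A)-selected RNA was sequenced, and total counts per library ran from 13435521 to 18216729 in the DMSO group and from 12438009 to 19534653 in the Yoda1 group. It is not stated in the sources used here if the samples of a group were separate mice or cultures, so p-values measure only the spread between these samples, which may be technical.

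The 13 ILC2 markers had the highest summed level of the marker lists, which held 4 to 13 genes, in every library. They were Gata3, Rora, Il1rl1, Il7r, Thy1, Klrg1, Il2ra, Icos, Areg, Il5, Il13, Ptprc and Id2. Because secreted products (Areg, Il5, Il13) are among them, their sum is not a measure of ILC2 identity or purity alone. The 13 summed to 17950 to 18477 CPM in DMSO libraries and 20027 to 20421 CPM in Yoda1 libraries. CPM are counts per TMM-scaled library, on the usual scale of edgeR. Each of the 13 was above 3 counts in at least 1 library, as was each T cell and natural killer marker. Of the 13, 6 were called higher and 1 lower by the test described below, which called 6.04% of all tested genes higher and 4.84% lower. The ILC2 marker sum itself was higher in every Yoda1 library than in any DMSO library. Natural killer markers summed to 764 to 840 CPM and to 812 to 876 CPM, with 2 of 6 called higher, and T cell markers to 72.1 to 80.7 CPM and 77.7 to 87.1 CPM, with none of 8 called by edgeR. Epithelial or stromal markers summed to 213 to 227 CPM with DMSO and 218 to 223 CPM with Yoda1. B cell markers summed to 5.32 to 7.07 CPM and 5.54 to 7.19 CPM, and mast cell or basophil markers to 4.14 to 5.88 CPM and 5.49 to 6.81 CPM. Neutrophil markers summed to 1.40 to 2.19 CPM and 0.973 to 1.53 CPM. No tested marker of these last lists was called. The part of the marker shifts in the results below was not tested. The share of counts on the 10 NRF2 genes was 0.121 to 0.128% in DMSO libraries and 0.129 to 0.132% in Yoda1 libraries. In bulk RNA, fewer cells of a type and less RNA per cell cannot be told apart.

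To show which members carry the letters of the NRF2 motif near their starts, their promoters were searched on both strands for the core of the antioxidant response element, TGACNNNGC. RefSeq promoter windows on GRCm38.p6, each with 250 bases before and 50 after a transcription start, were matched for 8 of the 10 members, all but Hmox1 and Gclc. The core was present in 5 of these 8 (Nfe2l2, Gclm, Txnrd1, Srxn1 and Prdx1), against 12.4% of all 32851 promoter windows and 17.2% of the 9319 tested genes with a window. The following stretches, 5′ to 3′ on the strand of the gene, show 3 of those cores and, in Srxn1 and Prdx1, the AP-1 motif TGANTCA, which can overlap the core. Capitals mark the motif, which in Gclm and Txnrd1 and at the second Prdx1 match is the reverse complement of the core.
Gclm, chr3:122245403-122245451, plus strand: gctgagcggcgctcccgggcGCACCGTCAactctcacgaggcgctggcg
Txnrd1, chr10:82859094-82859142, plus strand: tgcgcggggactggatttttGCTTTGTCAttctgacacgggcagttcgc
Srxn1, chr2:152105402-152105507, plus strand: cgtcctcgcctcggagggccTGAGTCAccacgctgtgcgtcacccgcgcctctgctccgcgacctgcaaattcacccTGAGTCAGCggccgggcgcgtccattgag
Prdx1, chr4:116685349-116685494, plus strand: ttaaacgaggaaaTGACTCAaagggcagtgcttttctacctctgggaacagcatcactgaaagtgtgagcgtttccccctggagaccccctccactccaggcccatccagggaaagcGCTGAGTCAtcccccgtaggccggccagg

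The Gclm core began 134 bases before the start and the Txnrd1 core 92 bases before the start of its second annotated promoter. In Srxn1 and Prdx1 the AP-1 motif was followed by GC, as TGANTCAGC, 45 and 133 bases before the start, a form held by 1.19% of all promoter windows. The Prdx1 match is at the same time a TGACNNNGC core. The Srxn1 match, TGAGTCAGC, has G where the searched core has C, so the strict search did not count it. The TGACNNNGC match of Srxn1 lay 29 bases after its start and is not shown. Keap1, Nqo1 and Sqstm1 held neither motif in these windows, and the E-box CACGTG, present in 7.15% of windows, was found in none of the 8 members. The core of Nfe2l2 began 240 bases before its start. None of the 5 members with a core passed the test between Yoda1 and DMSO below, and of the 3 members that did, Sqstm1 alone had a window to search. A match describes the letters only and is not evidence of binding. Bases outside these windows were not searched, so the lack of a match here does not show that a gene lacks the motif.

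Yoda1-treated ILC2s had higher transcript levels of Hmox1, Sqstm1 and Gclc than vehicle-treated ILC2s, by 1.30-fold, 1.17-fold and 1.10-fold. The other 7 members did not pass the test, and none was called lower. The test was the quasi-likelihood test of edgeR, with p-values adjusted by Benjamini-Hochberg over 12239 genes and a threshold of 0.05. At this threshold 10.9% of all tested genes were called in either direction, with 6.04% higher and 4.84% lower, against 3 of 10 members (30%) called higher. The members were chosen with earlier results of these data known, so the 30% is a description only. Scaled by upper-quartile factors, the split over all genes turned from 739 higher and 592 lower to 505 higher and 958 lower. The libraries of the 2 groups did not overlap for 3 of 10 members, all higher with Yoda1, beside 15.5% of all tested genes, 8.44% higher and 7.05% lower. The median log2 fold change (log2 change from here on) of the 10 members was 0.042 and that of all tested genes -0.0053. For single values a two-sided exact permutation test over the 70 assignments of 8 libraries was used, for which 0.0286 is the smallest p possible with 4 against 4.

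**Figure D1:**
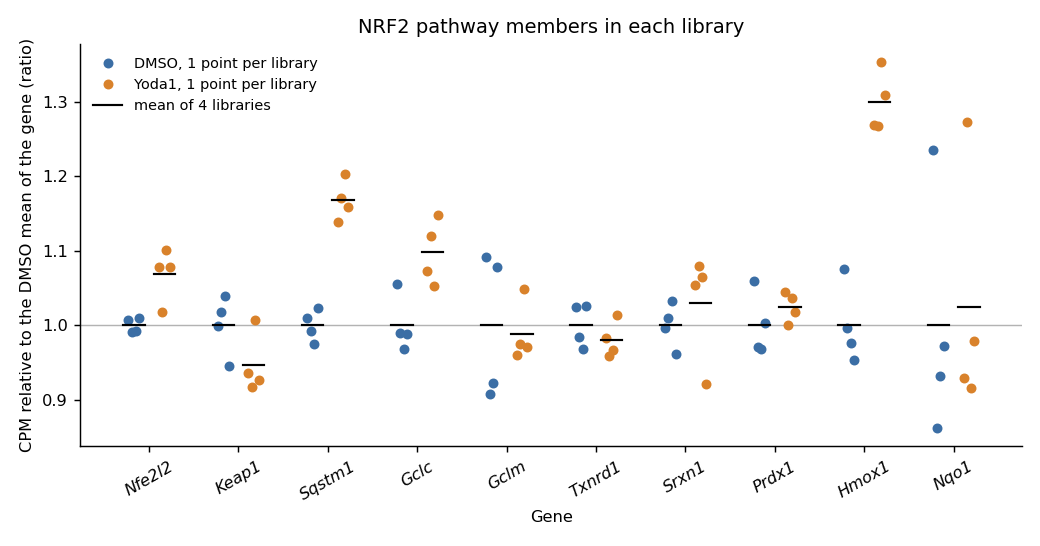
CPM of each member in each library divided by the DMSO mean of that gene (y axis, ratio) for the 10 members (x axis), with 4 DMSO points in blue, 4 Yoda1 points in orange and a black line at each group mean. The Yoda1 points lie above all DMSO points for Nfe2l2, Sqstm1 and Hmox1, and the groups overlap for the other 7 members.

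Among the regulators, the Nfe2l2 transcript itself did not pass the test. Its level was 35.7, 35.1, 35.2 and 35.8 CPM in the DMSO libraries and 38.2, 36.1, 39.0 and 38.2 CPM in the Yoda1 libraries. All 4 Yoda1 values were above all 4 DMSO values, as they were for 8.44% of tested genes. Nfe2l2 had a log2 change of 0.095 (SE 0.053, 95% interval -0.014 to 0.20, edgeR adjusted p = 0.271), and the exact permutation p was 0.0286.

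Keap1, which encodes the NRF2 inhibitor, also did not pass, and its groups overlapped. It was at 96.3, 98.2, 100.2 and 91.1 CPM in the DMSO libraries and at 90.2, 88.4, 97.1 and 89.4 CPM in the Yoda1 libraries. DMSO replicates 1 and 4 lay within the Yoda1 range, and 10.9% of the exon bases of Keap1 overlap the antisense gene Gm16754. For Keap1 the log2 change was -0.082 (SE 0.043, 95% interval -0.17 to 0.0056), with an edgeR adjusted p of 0.232 and an exact permutation p of 0.0857.

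Sqstm1 encodes p62, a receptor that carries ubiquitylated cargo to autophagosomes, binds KEAP1 and is itself an NRF2 target. Its level was 381.5, 374.9, 367.9 and 386.3 CPM in the DMSO libraries. In the Yoda1 libraries it was 429.9, 442.2, 454.2 and 437.3 CPM. The lowest Yoda1 library was above the highest DMSO library, and the means were 378 ± 8.0 and 441 ± 10.2 CPM (SD, n = 4 each). Sqstm1 rose by 0.22 on the log2 scale (SE 0.034, 95% interval 0.15 to 0.29, edgeR adjusted p = 3.34e-05), a change that exceeded 48.3% of those of all genes called. On chromosome 11 (GENCODE M21, GRCm38, 50199366 to 50210827, minus strand, 8 exons) 17.3% of its exon bases overlap Mrnip on the other strand, and the strand setting of the counting is not given in the sources used here. Mrnip, listed under an older symbol, had 30 to 64 counts per library, against 5230 to 8507 for Sqstm1.

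The ratio of Nfe2l2 to Keap1 within a library, which does not depend on library scaling, was taken as a measure of both genes together. Its log2 value was -1.44 ± 0.071 in DMSO libraries and -1.27 ± 0.043 in Yoda1 libraries (SD, n = 4 each), and the groups did not overlap. The difference was 0.17 (two-sided exact permutation p = 0.0286, adjusted p = 0.0762 over the 8 ratios examined), so it did not pass after adjustment. The unadjusted p is the smallest possible here, and a ratio at that limit passes the adjustment only if most of the 8 are at it. The adjusted p therefore cannot decide this difference. Nfe2l2 against Bach1 differed by 0.039 on the log2 scale (exact permutation p = 0.686, adjusted p = 0.784), with a range from -0.0089 without Yoda1 replicate 3 to 0.11 without Yoda1 replicate 2.

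The small MAF genes, whose products pair with NRF2 and also with BACH1, had positive fold changes. Maff rose from 10.1 ± 0.83 CPM with DMSO to 12.5 ± 1.28 CPM with Yoda1 (SD, n = 4 for both), by 0.32 on the log2 scale (SE 0.095, edgeR adjusted p = 0.0293). The call was lost without DMSO replicate 2 (adjusted p = 0.132), DMSO replicate 3 (0.0511), Yoda1 replicate 2 (0.124) or Yoda1 replicate 4 (0.0607), and with DESeq2 (0.0745). Mafg went from 40.1 to 44.6 CPM with no overlap of the groups, and Mafk from 40.3 to 45.1 CPM with overlap, with edgeR adjusted p of 0.0589 and 0.0502. Mafk passed with limma-voom (adjusted p = 0.0495), without a filter on low counts (0.0369), with at least 10 counts in every library (0.0466), without DMSO replicate 1 (0.0127) and without Yoda1 replicate 1 (0.0301), and Mafg passed without DMSO replicate 1 (0.0293).

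Bach1, the repressor at these sites, had a log2 change of 0.062 (edgeR adjusted p = 0.537), and Nfe2l1, an NRF2 relative, one of -0.065 (0.275). Cul3, the scaffold of the ligase that marks NRF2 for degradation, went from 124.9 ± 4.10 to 134.8 ± 2.65 CPM (SD, n = 4 each) with no overlap (log2 change 0.11, edgeR adjusted p = 0.0615), and it passed without DMSO replicate 4 (0.0390). Over all tested genes, 6.04% were called higher and 4.84% lower, the shares to set beside the counts of each list below. In the list of NRF2 partners and regulators as a whole, 20 of 22 genes were tested. Of these, 2 were called higher and none lower, and the median log2 change was 0.036. The other call was Fbxw11, an F-box protein of a second ligase that can mark NRF2, at a log2 change of 0.13 (edgeR adjusted p = 0.0465). That call was lost without any of 7 of the 8 libraries, Yoda1 replicate 4 being the exception (adjusted p 0.0541 to 0.118), with library size only (0.101), upper-quartile factors (0.133), DESeq2 (0.0689) and no filter on low counts (0.0544). Piezo1, the target of Yoda1, was at 310 ± 13.1 and 322 ± 17.6 CPM (SD, n = 4 each), with a log2 change of 0.056 (edgeR adjusted p = 0.407).

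**Figure D2:**
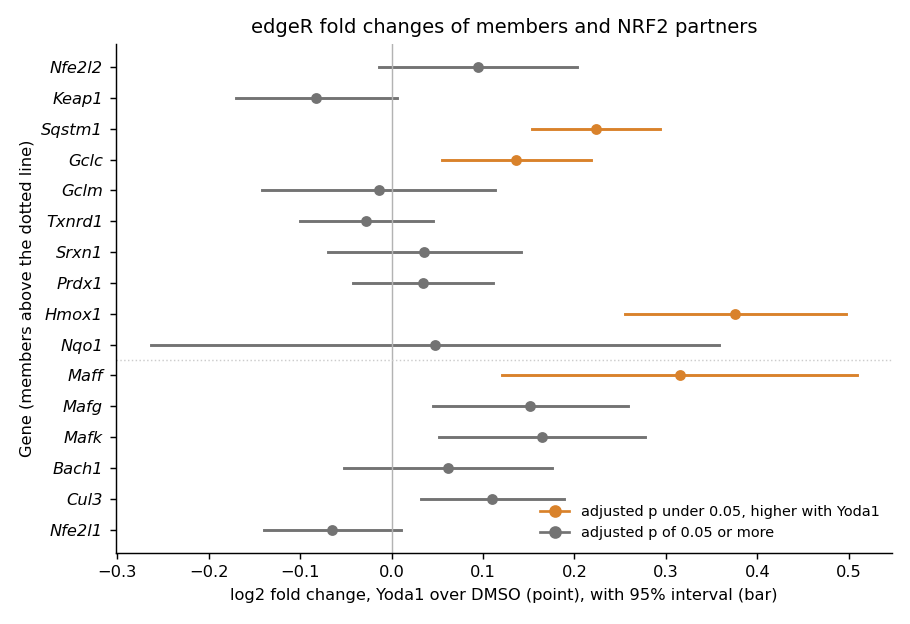
Log2 fold change of Yoda1 over DMSO (x axis, point) with its 95% interval (bar) from edgeR for the 10 members and, below the dotted line, 6 NRF2 partners (y axis), with orange for an adjusted p under 0.05. Sqstm1, Gclc, Hmox1 and Maff are orange, and Nqo1 has the widest interval, from -0.26 to 0.36.

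The largest change of the 10 members was in the transcript of the heme breakdown gene Hmox1. Hmox1 encodes heme oxygenase 1, the inducible enzyme that opens heme to biliverdin, carbon monoxide and iron, and it is repressed by BACH1 and activated by NRF2. The gene lies on chromosome 8 (75093621 to 75100589, plus strand, 5 exons), and no other annotated gene overlaps its exons. Its level was 28.6, 26.5, 25.9 and 25.3 CPM in the DMSO libraries and 33.7, 33.7, 36.0 and 34.8 CPM in the Yoda1 libraries. Every Yoda1 library lay above every DMSO library, with means of 26.6 ± 1.41 and 34.5 ± 1.08 CPM (SD, n = 4 each). Hmox1 rose by 0.38 on the log2 scale (SE 0.059, 95% interval 0.26 to 0.50, edgeR adjusted p = 4.78e-05), more than 78.4% of all genes called.

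Macrophages express Hmox1 at a high level, so their markers were measured in the same libraries. Of 11 macrophage or monocyte markers, 6 (Lyz2, Csf1r, Mrc1, Marco, C1qa and C1qb) were at 3 counts or fewer in every library, 3 of them at 0 throughout. The remaining markers, Adgre1, Cd68, Siglecf, Cd14 and Itgam, exceeded 3 counts in some library. The summed level of the 11 was 7.38 to 9.23 CPM in DMSO libraries and 7.91 to 9.36 CPM in Yoda1 libraries. Neither of the 2 markers tested was called. A part of macrophages in the Hmox1 level was not tested.

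Hmox2, the constitutive heme oxygenase, was not called. It was at 40.3 ± 2.97 CPM with DMSO and 37.3 ± 1.11 CPM with Yoda1 (SD, n = 4 each), a log2 change of -0.11 (edgeR adjusted p = 0.229). The log2 ratio of Hmox1 to Hmox2 went from -0.60 ± 0.090 to -0.11 ± 0.073 (SD, n = 4 each), the largest of the 8 ratio differences at 0.49. The 4 and 4 libraries did not overlap in this ratio (two-sided exact permutation p = 0.0286, adjusted p = 0.0762). The limit of the adjustment given for Nfe2l2 to Keap1 holds for this ratio too.

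Of 19 tested genes for heme and iron handling, 1 was called higher and 2 lower, with a median log2 change of -0.060. Ftl1, the ferritin light chain that stores iron, rose from 1038 to 1099 CPM in the DMSO libraries to 1116 to 1224 CPM in the Yoda1 libraries (log2 change 0.14, edgeR adjusted p = 0.00936), and it may share reads with its processed copies. The Ftl1 call was lost with the replicate number as a block in the edgeR fit (adjusted p = 0.0506). Calls of other genes lost with that block are listed at the end. Tfrc, the transferrin receptor that imports iron, fell from 460 ± 10.7 to 403 ± 14.8 CPM (SD, n = 4 each; log2 change -0.19, edgeR adjusted p = 0.000505). Cpox, an enzyme of heme synthesis, fell by 0.19 on the log2 scale (edgeR adjusted p = 0.0453), a call that was lost without any library other than DMSO replicate 3 or Yoda1 replicate 4 (adjusted p 0.0543 to 0.152) and with DESeq2 (0.103).

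In glutathione synthesis only the catalytic subunit was called. Gclc encodes the catalytic subunit of glutamate-cysteine ligase, which sets the pace of glutathione synthesis, from chromosome 9 (77754535 to 77794485, plus strand, 16 exons). It was at 138.5, 129.9, 127.0 and 129.8 CPM in the DMSO libraries and at 140.8, 147.1, 138.1 and 150.7 CPM in the Yoda1 libraries. DMSO replicate 1 lay above Yoda1 replicate 3, so the groups overlapped by these 2 libraries. The log2 change was 0.14 (SE 0.040, 95% interval 0.055 to 0.22, edgeR adjusted p = 0.0246), the exact permutation p was 0.0571, and the change exceeded 9.39% of those of all genes called. The call was lost with scaling by library size only (adjusted p = 0.0596) or by upper-quartile factors (0.0832), and without DMSO replicate 2 (0.0736), DMSO replicate 3 (0.0837), DMSO replicate 4 (0.0617), Yoda1 replicate 2 (0.0597) or Yoda1 replicate 4 (0.126).

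Gclm, the modifier subunit of the same enzyme, was at 40.7, 33.8, 34.4 and 40.2 CPM with DMSO and at 35.7, 36.3, 39.0 and 36.2 CPM with Yoda1. The Yoda1 values all lay inside the DMSO range, and 4.71% of the exon bases of Gclm overlap Gm17494 on the other strand and 3.88% overlap the pseudogene Gm6061 on the same strand. For Gclm the log2 change was -0.014 (SE 0.062, 95% interval -0.14 to 0.11, edgeR adjusted p = 0.922). The log2 ratio of Gclc to Gclm differed by 0.15 between the groups (exact permutation p = 0.114, adjusted p = 0.183), so an unequal change of the subunits was not shown.

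Among 34 tested glutathione genes, 1 was called higher and 2 lower, and the median log2 change was -0.053. Slc7a11, the cystine importer that feeds glutathione synthesis and a known NRF2 and ATF4 target, had the largest fold change of the companion lists. It was at 4.19, 2.79, 2.94 and 3.47 CPM with DMSO and at 1.94, 1.52, 1.72 and 1.95 CPM with Yoda1, from 23 to 67 counts per library. The groups did not overlap and the level was 1.86-fold lower with Yoda1 (log2 change -0.90, SE 0.19, edgeR adjusted p = 0.00220). Mgst2, a microsomal glutathione transferase, fell by 0.40 on the log2 scale (edgeR adjusted p = 0.0353), a call lost without DMSO replicates 1 or 3 or Yoda1 replicates 1, 3 or 4 (adjusted p 0.0527 to 0.158) and with DESeq2 (0.0854). Gstm1, a cytosolic glutathione transferase from a family of close copies, rose by 0.27 (edgeR adjusted p = 0.00914), a call lost without Yoda1 replicate 4 (0.0675). Gpx1, the glutathione peroxidase with the highest level per length in the list, had a log2 change of -0.042 (edgeR adjusted p = 0.571).

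The 3 members of the thioredoxin cycle had log2 changes between -0.028 and 0.036, none of them called. Txnrd1, which reduces thioredoxin with NADPH, was at 276, 265, 261 and 277 CPM with DMSO and at 265, 259, 261 and 274 CPM with Yoda1. Prdx1, a peroxiredoxin that removes hydrogen peroxide, was at 208, 191, 190 and 197 CPM with DMSO and at 205, 197, 204 and 200 CPM with Yoda1. For both genes the groups overlapped widely, with 95% intervals of the log2 change from -0.10 to 0.045 for Txnrd1 (edgeR adjusted p = 0.683) and from -0.042 to 0.11 for Prdx1 (0.620). Srxn1, sulfiredoxin, which restores overoxidised peroxiredoxins, was at 53.8, 54.5, 55.8 and 51.9 CPM with DMSO and at 56.9, 58.3, 57.5 and 49.7 CPM with Yoda1. Yoda1 replicates 1, 2 and 3 were above all DMSO libraries and Yoda1 replicate 4 was below all of them. The log2 change of Srxn1 was 0.036 (SE 0.052, 95% interval -0.070 to 0.14, edgeR adjusted p = 0.727), and without Yoda1 replicate 4 it was 0.091 (0.322).

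The Srxn1 to Prdx1 ratio differed by 0.0039 on the log2 scale (exact permutation p = 1) and the Txnrd1 to Txn1 ratio by -0.11 (exact permutation p = 0.0571, adjusted p = 0.114). Txn1, thioredoxin itself, had a log2 change of 0.082 (edgeR adjusted p = 0.226), which passed without DMSO replicate 1 (0.0267). Of 16 tested thioredoxin and peroxiredoxin genes, Txnip was the only call, with a list median of 0.0071. Txnip encodes a protein that binds and inhibits thioredoxin, and it fell from 709.6, 688.9, 694.7 and 680.9 CPM with DMSO to 468.1, 479.8, 476.5 and 468.4 CPM with Yoda1. Every Yoda1 library was below every DMSO library, a 1.47-fold lower level (log2 change -0.55, SE 0.033, edgeR adjusted p = 3.22e-13). No gene of NADPH supply was called by edgeR among 16 tested, and none had an unadjusted p under 0.05. Their median log2 change was -0.0052, and Nadk, the NAD kinase with the highest level per length of that list, was at 0.038 (edgeR adjusted p = 0.554).

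Nqo1, the quinone reductase often used as a readout of NRF2 activity, was the least abundant member. It was at 5.25, 3.67, 3.96 and 4.14 CPM with DMSO and at 3.95, 5.41, 3.90 and 4.16 CPM with Yoda1, from 49 to 89 counts per library. A library in each group stood above 5 CPM and the other 6 lay between 3.67 and 4.16 CPM. The log2 change was 0.048 (SE 0.15, 95% interval -0.26 to 0.36, edgeR adjusted p = 0.888), so at this depth a change as large as that of Hmox1 falls only just outside the interval and one as large as that of Sqstm1 or Gclc lies within it.

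Of 19 tested genes for quinone and carbonyl detoxification, 1 was called higher and 3 lower, with a median log2 change of -0.066. Nqo2, a relative of Nqo1 that uses another cofactor, fell from 18.2 ± 1.09 to 14.0 ± 1.51 CPM (SD, n = 4 each) without overlap (log2 change -0.39, SE 0.084, edgeR adjusted p = 0.00253). Por, the reductase that passes electrons to cytochrome P450 enzymes, rose by 0.15 on the log2 scale (edgeR adjusted p = 0.0124). The aldehyde dehydrogenase gene Aldh3a2 fell by 0.18 (edgeR adjusted p = 0.0371) and the aldo-keto reductase gene Akr1c13 by 0.17 (0.0274). Aldh3a2 lost its call without DMSO replicates 3 or 4 or Yoda1 replicates 2, 3 or 4 (adjusted p 0.0585 to 0.158), and Akr1c13 without DMSO replicates 1 or 2 or Yoda1 replicates 1 or 4 (0.0619 to 0.0906). With DESeq2 the adjusted p was 0.0942 for Aldh3a2 and 0.0633 for Akr1c13. Akr1a1, with the highest level per length in the list, had a log2 change of -0.062 and was not called. Among 10 tested superoxide and peroxide enzymes the only call was Cat, catalase, which fell by 0.15 (edgeR adjusted p = 0.0372) with no overlap of the groups. The call of Cat was lost when any 1 of the 8 libraries was left out (adjusted p 0.0579 to 0.0914), with DESeq2 (0.0960) and without a filter on low counts (0.0593). The median of that list was -0.076, and Cyba, an NADPH oxidase subunit and its most abundant member per length, was at -0.028.

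Metallothioneins, which bind zinc and copper and scavenge oxidants, gave 2 calls, both higher, among 5 tested genes with a median log2 change of 0.085. Over all tested genes 6.04% were called higher. Mt1 rose from 143.5 ± 5.35 to 163.1 ± 3.70 CPM and Mt2 from 156.0 ± 5.43 to 174.4 ± 10.5 CPM (SD, n = 4 each), both without overlap (edgeR adjusted p = 0.00138 and 0.0112). The Mt2 call was lost without DMSO replicate 3 (adjusted p = 0.0507), Yoda1 replicate 1 (0.0587) or Yoda1 replicate 3 (0.05003). In the autophagy list around p62, 2 of 18 tested genes were called higher and none lower, with a median of 0.056. Nbr1, an autophagy receptor related to p62, rose from 133.2 ± 2.10 to 147.2 ± 1.79 CPM (SD, n = 4 each; log2 change 0.15, edgeR adjusted p = 0.00821). Gabarap, a membrane-bound tag of autophagosomes, rose by 0.12 (edgeR adjusted p = 0.0442), a call lost without DMSO replicates 3 or 4 or Yoda1 replicates 1 or 4 (adjusted p 0.0970 to 0.163), with library size only (0.105), upper-quartile factors (0.144) and DESeq2 (0.0503). The log2 ratio of Sqstm1 to Nbr1 went from 1.504 ± 0.018 to 1.58 ± 0.034 (SD, n = 4 each) with no overlap. The difference was 0.079 (two-sided exact permutation p = 0.0286, adjusted p = 0.0762), so a larger rise of Sqstm1 did not pass after adjustment. The adjusted p could not decide this, for the reason given for Nfe2l2 to Keap1.

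**Figure D3:**
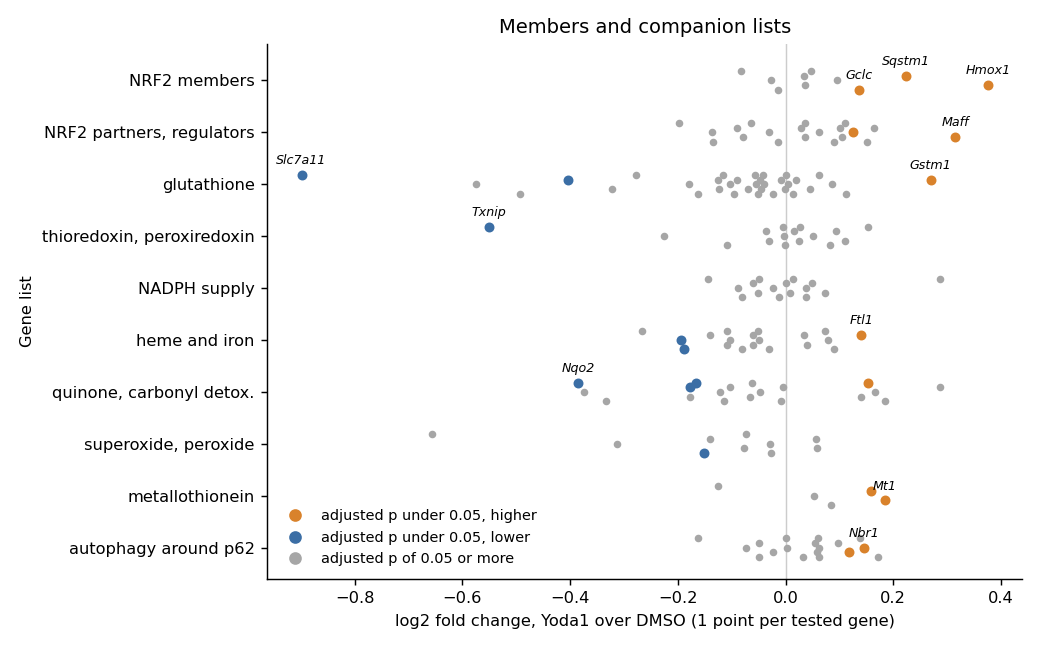
Log2 fold change of Yoda1 over DMSO (x axis) for every tested gene of the NRF2 members and of 9 companion lists (y axis, 1 row per list), with orange for calls higher, blue for calls lower and grey for genes of adjusted p 0.05 or more. Slc7a11 at -0.90 and Txnip at -0.55 lie farthest to the left among the called genes, and Hmox1 at 0.38 farthest to the right.

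Over the 9 companion lists together, 157 of 170 genes were tested, 9 were called higher and 9 lower, or 11.5%, beside 10.9% of all tested genes. Their median log2 change was -0.024, with 67 genes above 0 and 90 below. A share this near the background is no result about these lists.

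Levels per length were compared as RPKM, the CPM per kilobase of annotated exon. Sqstm1 was the most abundant member at 122 RPKM, followed by Prdx1 at 65.4, Txnrd1 at 37.7, Gclc at 36.6, Keap1 at 20, Srxn1 at 19.4, Hmox1 at 17.5, Nfe2l2 at 9.66, Gclm at 5.89 and Nqo1 at 2.77. Neighbours in this order whose ranges over the 8 libraries overlapped were Txnrd1 and Gclc, Keap1 and Srxn1, and Srxn1 and Hmox1. Sqstm1 stood above 97.2% of all tested genes in level per length and Nqo1 above 30.7%. The catalytic subunit of glutamate-cysteine ligase was thus listed at a higher level per length than its modifier in every library. With the longest transcript as the length the order stayed the same, but Txnrd1 became 73.8 RPKM and Nfe2l2 14.8 RPKM.

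**Figure D4:**
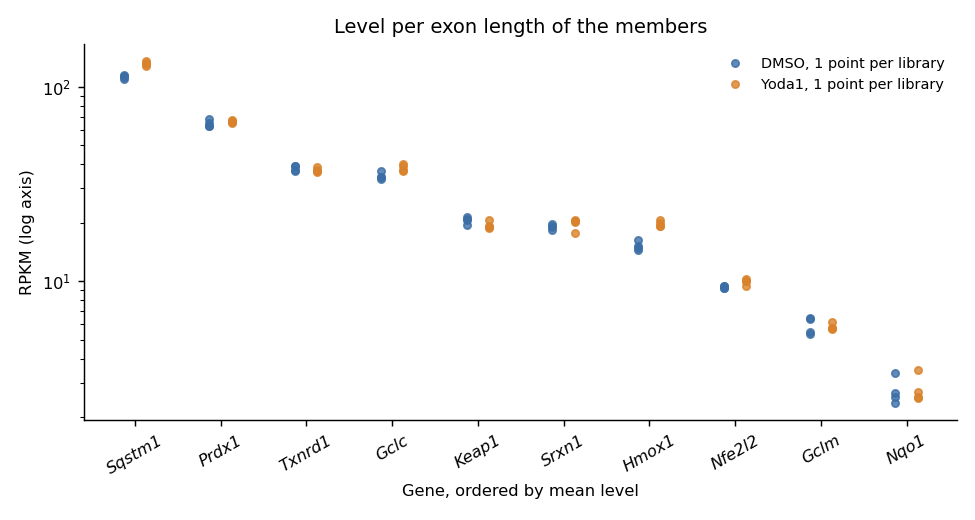
RPKM (y axis, log scale) of the 10 members (x axis, ordered by mean level) in the 4 DMSO libraries in blue and the 4 Yoda1 libraries in orange. The levels span from 2.77 RPKM for Nqo1 to 122 RPKM for Sqstm1, and the treatment groups of each gene lie close together beside that span.

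The tested genes whose profile over the 8 libraries was most like that of Nfe2l2, by the Euclidean distance of standardised log2 CPM, were Trmt10a (0.603), Actr1b (0.621) and Cep83 (0.734). For Sqstm1, the member with the smallest p, they were Twsg1 (0.419), Xcl1 (0.425) and Uhrf2 (0.451). These profiles share the treatment contrast and the libraries, so the distances are a description.

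Across the alternative scalings, filters, tests and left-out libraries, Hmox1 and Sqstm1 stayed called and Gclc did not in 8 of the 15, the replicate block among them. The log2 change ran from 0.35 to 0.41 for Hmox1, from 0.19 to 0.24 for Sqstm1 and from 0.11 to 0.16 for Gclc.

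**Figure D5:**
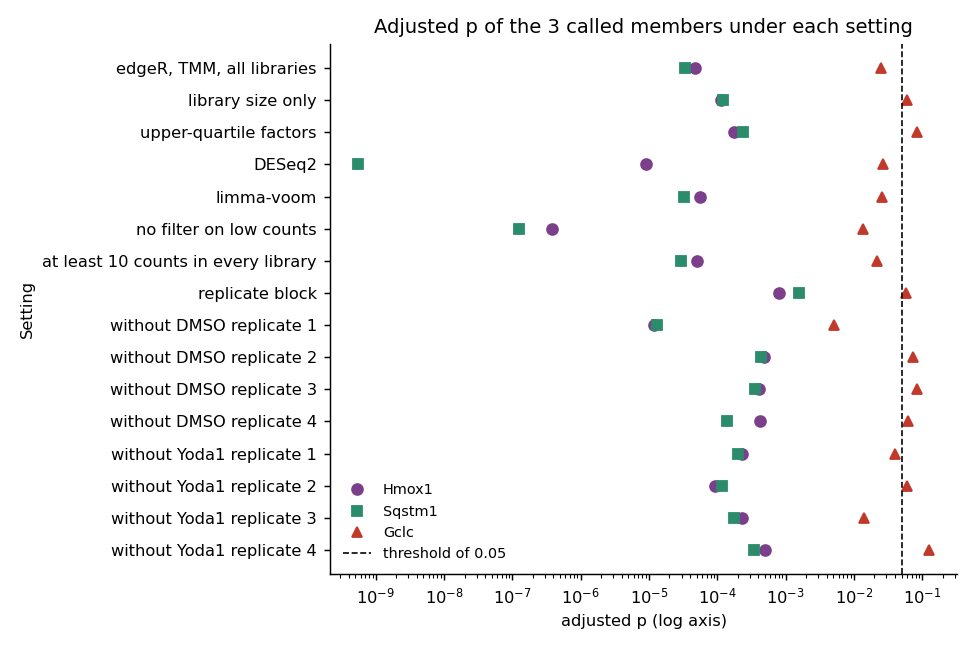
Adjusted p (x axis, log scale) of Hmox1, Sqstm1 and Gclc under the edgeR analysis with all libraries and 15 alternatives (y axis), with a dashed line at 0.05. Hmox1 and Sqstm1 lie left of the line in each, and Gclc lies right of it in 8 of the 15 alternatives.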

How the data were processed

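Poly(A)-selected RNA of 4 DMSO and 4 Yoda1 samples was sequenced from libraries of a directional (strand-marking) kit. For each sample the authors deposited a table of read counts by gene symbol, as whole numbers that had not been normalized. The submitters' processing notes name TopHat and mm10, and the study's methods list BBMap and Cufflinks after trimming and quality control. Versions, the annotation and the strand setting are not given in the sources used here, and without strand, overlapping opposite genes cannot be told apart.

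From the counts, genes were filtered with filterByExpr (minimum count 10, minimum total 15), scaled with TMM (factors 0.988 to 1.01) and tested with edgeR 4.0.16 (robust quasi-likelihood fit, R 4.3.3), calling genes at a Benjamini-Hochberg adjusted p under 0.05. SEs were derived from the F statistic, as the size of the log2 change over √F. Within-library ratios used counts plus 0.5. Alternatives were DESeq2 1.42.0, limma-voom (limma 3.58.1), upper-quartile factors, library size only, no filter, at least 10 counts in every library, the replicate number as a block, each library left out, a pseudocount of 1 in the ratios and the longest transcript as length. The test was checked on simulated data. Intervals reflect counting and sample error in these libraries only.

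Replicate pairs within a group differed by more than sampling noise (chi-square per gene 2.04 to 6.94), so none was merged. Gene positions and exon lengths came from GENCODE M21 (GRCm38), which matched 95.5% of the symbols.

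The members and the companion lists were chosen with earlier results of these data known. Named genes are the 10 members, 7 fixed partners (Bach1, Mafg, Mafk, Maff, Nfe2l1, Cul3 and Piezo1), from each companion list the called genes (at most the 4 with the largest change) and its most abundant gene per length, and for Nfe2l2 and the member of smallest p the 3 genes of the most similar profile. Hmox2 and Txn1 were named as partners in ratios and Mrnip as an overlapping gene, and marker genes as members of their lists.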

Additional observations from a re-analysis of the deposited data

Results flagged for a closer look

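Of 106 groups of 4 libraries taken over the named genes and the 8 ratios, 2 held a library far from its 3 companions. Dixon's criterion was used, and chance alone gives 5.3. Srxn1 in Yoda1 replicate 4 was at 49.7 CPM, below the nearest other Yoda1 library at 56.9 CPM. Nbr1 in DMSO replicate 4 was at 136.3 CPM, above the nearest other DMSO library at 132.5 CPM and below every Yoda1 library.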

How the results depend on the processing

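The calls of Hmox1 and Sqstm1 held under each of 7 alternatives and each of 8 left-out libraries, and no member was called lower under any of them. The count of members called higher was 2 or 3 when libraries were left out, 2 with library size only, upper-quartile factors and the replicate block, and 3 with the others. Over all genes, 958 were called lower with upper-quartile factors, where 505 were called higher, against 592 and 739, and 372 lower with DESeq2. Leaving out 1 library gave 519 to 807 higher and 367 to 677 lower, the lowest counts of genes called lower being 367 without DMSO replicate 2 and 374 without Yoda1 replicate 4. In the companion lists 14 genes were called lower with upper-quartile factors and 4 with DESeq2, and leaving out 1 library gave 6 to 11 higher and 5 to 8 lower.

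Same-numbered DMSO and Yoda1 samples had deviations correlated at -0.028 to 0.071, within the range of differently numbered samples (-0.12 to 0.077). Pairing by replicate number was thus not seen, but so few samples cannot exclude it. With the replicate block, 5 companion genes were called higher and 4 lower, 548 and 418 of all genes were called higher and lower, and the calls of Gclc (adjusted p = 0.0588), Ftl1 (0.0506), Cpox (0.0547), Cat (0.0649), Aldh3a2 (0.0651), Akr1c13 (0.0655), Maff (0.0689), Mgst2 (0.0882), Fbxw11 (0.0888) and Gabarap (0.0922) were lost.

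Nqo1, which was not called, ran from -0.078 to 0.17 on the log2 scale when 1 library was left out, turning negative at -0.026 without DMSO replicate 2 and at -0.078 without Yoda1 replicate 2. Gclm ran from -0.061 to 0.033, turning positive without DMSO replicate 1 at 0.033 or DMSO replicate 4 at 0.021, and Cyba from -0.061 to 0.018. Of the 8 ratios, those of Nfe2l2 to Bach1 (-0.0089 to 0.11) and Srxn1 to Prdx1 (-0.031 to 0.053) also changed sign. The cause of these shifts was not tested. Scaling moved the median log2 fold change of all tested genes by at most 0.031, under upper-quartile factors, where it was -0.036. The values of Nqo1 and Slc7a11 rest on 49 to 89 and 23 to 67 counts per library, which limits their precision.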
